A study of Mus musculus with 6 samples.

Results

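The proteasome subunit genes were followed in distal tissue of the embryonic midgut of *Id2*-/- and *Id2*+/+ mice at E13.5. A probe was taken as a member when its only gene symbol in the platform annotation began with Psma, Psmb, Psmc, Psmd, Psme, Psmf or Psmg and a number. This gave 37 of the 33012 probes of the array, 1 probe per gene, out of 13840 genes with a probe named for them alone. Of these genes, 35 encode parts, regulators or assembly chaperones of the proteasome. The other 2, *Psmc3ip* and *Psme3ip1*, encode proteins named as partners of a subunit and were kept because their symbols fit. Another 14 genes of the family, among them *Psmb6*, *Psmb9*, *Psmd1* and *Psme1*, had no probe named for them alone and were not analysed here.

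Tissue was compared between 3 *Id2*-/- samples, which lack the inhibitor of DNA binding Id2, and 3 *Id2*+/+ samples, which the labels call littermates. Each sample was hybridized to its own single-color array. The mutation is present throughout the body, and the methods place the colony on a 129/Sv or a mixed 129/Sv × NMRI background without saying which these embryos carried. No cell type was sorted, and the sources do not tell whether a sample came from 1 embryo or several, so p-values cover only the spread among these samples. The targeted gene was not analysed here, and the genotype of each array is the one in its label. Epithelial markers of the gut were found, with 8 of 8 genes above background on all 6 arrays.

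The proteasome degrades proteins that carry ubiquitin chains. Its core particle is a barrel of alpha and beta rings in which a few beta subunits carry the proteolytic sites. The regulatory particle on its ends recognizes ubiquitin, removes it and unfolds the substrate with a ring of ATPases. In cells exposed to interferon gamma, and in many cells of the immune system, the catalytic subunits are exchanged for immune forms that alter the peptides made for antigen presentation. *Psmb8* takes the place of *Psmb5*, *Psmb9* that of *Psmb6* and *Psmb10* that of *Psmb7*, and *Psmb11* is the form of the thymic cortex.

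Promoters are shown for a constitutive catalytic subunit gene and for the immune subunit genes with a probe, since these carry the comparison of constitutive with immune subunits. Each run holds the 250 bases before the gene start in RefSeq (GRCm38.p6), on the strand of the gene. Capitals mark TGACNNNGC, a core of the antioxidant response element, in *Psmb5*, and TTCNNNGAA, the gamma-activated site bound by Stat factors after interferon gamma, in *Psmb8*. Neither motif was found in the window of *Psmb10*, which has no capitals. The windows lie at chr14:54617996-54618245 on the minus strand for *Psmb5*, at chr17:34197945-34198194 on the plus strand for *Psmb8* and at chr8:105938393-105938642 on the minus strand for *Psmb10*.
Psmb5: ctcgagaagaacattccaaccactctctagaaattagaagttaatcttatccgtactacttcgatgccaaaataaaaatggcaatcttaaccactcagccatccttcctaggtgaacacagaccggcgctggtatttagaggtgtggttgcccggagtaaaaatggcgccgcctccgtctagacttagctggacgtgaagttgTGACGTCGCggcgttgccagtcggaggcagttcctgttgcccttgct
Psmb8: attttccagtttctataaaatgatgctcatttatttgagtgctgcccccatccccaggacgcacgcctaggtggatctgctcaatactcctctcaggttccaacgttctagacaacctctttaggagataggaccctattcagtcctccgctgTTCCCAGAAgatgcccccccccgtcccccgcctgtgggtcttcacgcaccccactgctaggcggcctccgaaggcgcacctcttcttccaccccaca
Psmb10: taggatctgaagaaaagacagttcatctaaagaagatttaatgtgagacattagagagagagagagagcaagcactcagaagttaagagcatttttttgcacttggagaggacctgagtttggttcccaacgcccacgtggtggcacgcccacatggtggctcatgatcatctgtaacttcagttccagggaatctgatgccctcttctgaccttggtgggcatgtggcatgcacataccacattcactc
Of the 37 member genes, 31 were matched to a promoter. Both strands were searched. TTCNNNGAA was found in the windows of 2 of the 31 genes, *Psmb8* and *Psmg1*, and in 7.02% of all 32851 windows. TGACNNNGC was found for 3 genes, *Psmb5*, *Psmd12* and *Psmc6*, and in 10.2% of all windows. The interferon-stimulated response element, searched as GAAA repeated after any 2 bases, was found for *Psmb3* and *Psmd4* and in 2.98% of all windows, while CCAAT was found for 12 genes and in 33.9% of all windows. A match describes these letters only. The other genes with the antioxidant motif are shown by 49 bases around it, at chr11:107479278-107479326 on the plus strand for *Psmd12* and at chr14:45329577-45329625 on the plus strand for *Psmc6*. In both the match lies on the opposite strand, so the capitals read as its complement.
Psmd12: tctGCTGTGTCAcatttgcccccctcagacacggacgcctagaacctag
Psmc6: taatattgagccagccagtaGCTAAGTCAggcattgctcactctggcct
In gene order, *Psmb8* lies between *Tap1* and *Tap2*, which encode the peptide transporter of antigen presentation, with *Psmb9* beyond *Tap1*. *Psmb5* is a neighbor of *Psmb11*.

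The array gives for each probe a median-normalized signal and a signal-to-noise value from the scanner software, and a probe was called above background at a signal-to-noise of at least 3. Signals of different probes are not compared, because probes differ in brightness. All signals below are log2 of the median-normalized value, and a difference is *Id2*-/- minus *Id2*+/+. Between 13891 and 16543 probes per array were above background, and 12741 probes were tested. A tested probe carried no bad-spot flag on any array and reached this limit on each array of *Id2*-/-, of *Id2*+/+ or of both. Among the members, 34 were tested. The 3 left out were *Psmb8*, *Psmb11* and *Psmf1*. Both arrays numbered 1 stood apart from the other 4. They correlated with each other at 0.984 across tested probes and with the others at 0.909 to 0.931, and the other 4 among themselves at 0.979 to 0.988. For this reason, values are given by array number.

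The constitutive catalytic subunit genes with a probe and the immune *Psmb10* were above background on every array, whereas the immune *Psmb8* was not. *Psmb5* and *Psmb7* were above background in 12 of 12 measurements, and *Psmb8* and *Psmb10* in 7 of 12, of which *Psmb10* made up 6. With a signal-to-noise limit of 5 these counts were 10 and 6. *Psmb10* then passed on 3 *Id2*-/- and 3 *Id2*+/+ arrays, and *Psmb5* on 3 and 1. Probes differ in brightness, so these counts do not rank the constitutive against the immune forms.

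*Psmb5* encodes the subunit with chymotrypsin-like activity. Its signal was 5.59, 2.78 and 2.90 on the *Id2*-/- arrays numbered 1, 2 and 3, against 5.52, 2.85 and 2.72 on the *Id2*+/+ arrays. In both genotypes, array 1 was far above the others, and the genotypes overlapped. The signal-to-noise values moved in the same manner, with 29.8, 6.61 and 5.15 in *Id2*-/- and 21.6, 3.18 and 3.29 in *Id2*+/+ samples, the last 2 of which lie just above the limit. The difference was 0.06 ± 0.99 (SE, limma, adjusted p = 1.0, n = 3 each), and its 95% confidence interval of -2.25 to 2.37 was the widest of all members. With the array number as a replicate block the interval was -0.48 to 0.60.

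*Psmb7* encodes the subunit with trypsin-like activity. It had a signal of 8.02, 8.08 and 8.05 in *Id2*-/- samples and 7.51, 8.15 and 8.30 in *Id2*+/+ samples, with a signal-to-noise of at least 101.7 on every array. The *Id2*-/- values lay close together within the range of the *Id2*+/+ values, of which array 1 was the low one. The difference was 0.07 ± 0.28 (SE, limma, adjusted p = 1.0, n = 3 each).

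*Psmb10*, the immune counterpart of *Psmb7*, was above background on all arrays. The signal was 2.87, 1.77 and 1.49 in *Id2*-/- samples, against 2.40, 1.92 and 2.13 in *Id2*+/+ samples. Array 1 was the highest in both genotypes, and the *Id2*-/- values spanned those of *Id2*+/+. The signal-to-noise was 50.3, 8.80 and 9.44 in *Id2*-/- and 43.9, 7.04 and 19.5 in *Id2*+/+ samples. The difference was -0.10 ± 0.39 (SE, limma, adjusted p = 1.0, n = 3 each), with a 95% confidence interval of -1.02 to 0.81.

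*Psmb8*, the immune counterpart of *Psmb5*, was above background on a single array, the *Id2*-/- array numbered 2. The signal-to-noise was 0.20, 4.68 and 0.92 in *Id2*-/- samples, against 1.0, 2.34 and 0.80 in *Id2*+/+ samples. The signal was 1.50, 2.51 and 0.84 in *Id2*-/- and 1.08, 1.27 and 0.84 in *Id2*+/+ samples. Array 2 was highest in both genotypes, and with 5 of 6 measurements below background no fold was taken. *Psmb11* was below background on all 6 arrays, with a signal-to-noise between -2.79 and 2.72.

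**Figure D1:**
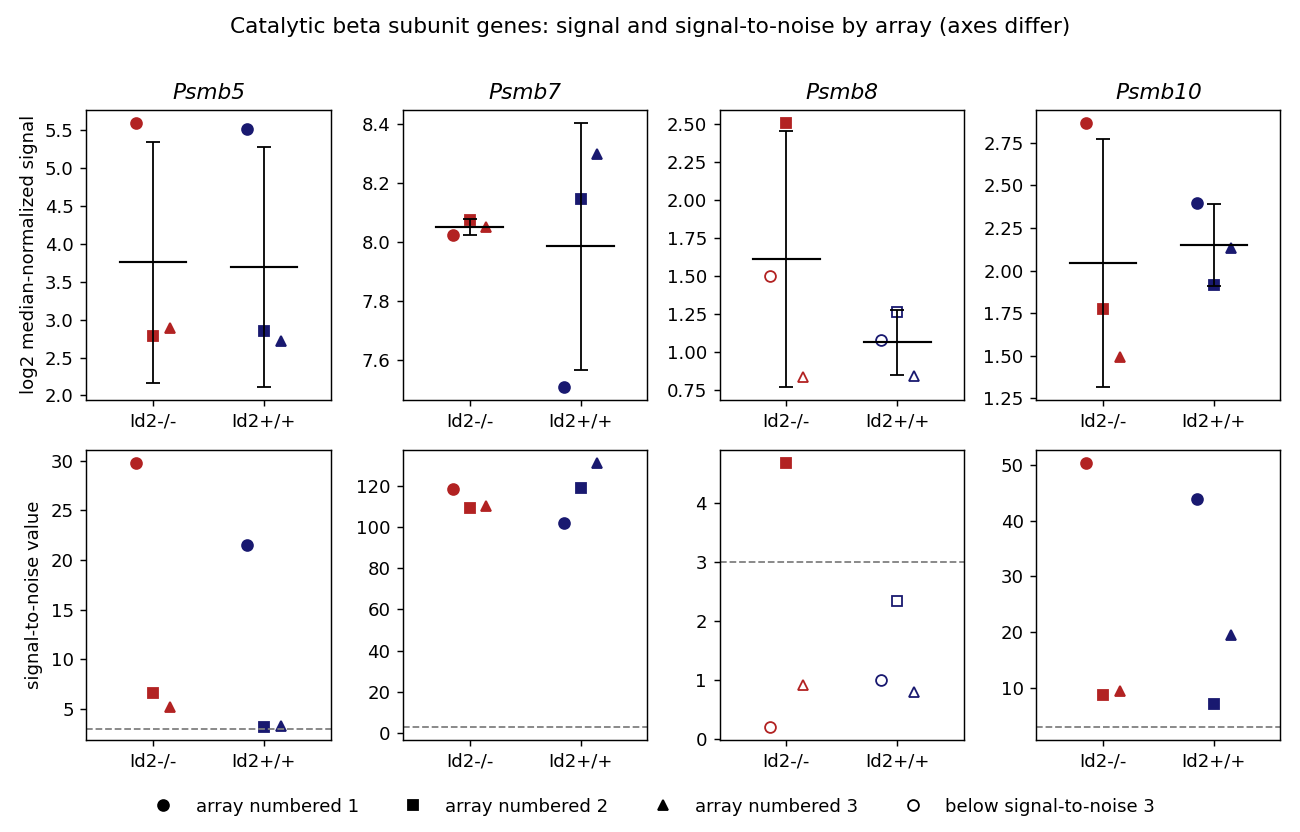
Signal (upper row, log2 of the median-normalized value) and signal-to-noise (lower row, dashed line at 3) of 4 catalytic subunit genes on each array, with *Id2*-/- left of *Id2*+/+. Symbols mark the array number, open symbols lie below a signal-to-noise of 3, and bars give mean ± SD (n = 3). Array 1 stands above the others for *Psmb5* and *Psmb10* in both genotypes, and *Psmb8* has 1 filled symbol.

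Leukocytes are known for the immune forms, so their markers were read on the same arrays. *Ptprc*, which encodes the leukocyte common antigen CD45, was above background on 0 of 3 *Id2*-/- and 1 of 3 *Id2*+/+ arrays, and *Cd74* on 1 and 2 of them. Macrophage genes such as *Adgre1* and *C1qa* were above background on all 6 arrays. In total, 8 of the 11 leukocyte markers with a probe were tested, and 7 of these 8 had a difference below 0 (median -0.10, compared with 0.04 for all 12741 probes). By pair, their medians were -0.07, 0.04 and -0.30. The summed signal of all 11 markers with a probe, tested or not, was between 91.5 and 108.8 in *Id2*-/- samples on the linear scale. In *Id2*+/+ samples this sum was between 91.3 and 128.3, and on the *Id2*-/- array with *Psmb8* above background it was 108.1. The part of leukocytes in the signal of *Psmb8* and *Psmb10* was not tested. In whole tissue, fewer cells of a type and less RNA per cell cannot be told apart.

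Genes that act with the immune subunits gave a mixed picture. Of 16 listed genes of the interferon response and antigen presentation, 12 had a named probe and 9 were tested. *Tap1*, next to *Psmb8* in the genome, was below background on all 6 arrays, whereas *Tap2*, on its other side, was above background on all 6, with a difference of -0.17 ± 0.41 (SE, limma, n = 3 each). The interferon regulators *Irf1* and *Irf9* differed by 0.12 and 0.01, the class I heavy chain *H2-K1* by -0.44 and its light chain *B2m* by -0.17. The median over the 9 was -0.04. Without the block 0 of the 9 were called. With the replicate block 1 was called, compared with 2.18% of all tested probes, and with quantile normalization added to the block 0 of all probes were. The gene called was the guanylate-binding protein gene *Gbp2*, which was below background on all 3 *Id2*-/- arrays and was tested only because it passed the limit in *Id2*+/+ samples, so the call is not read as a result.

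None of the 34 tested members passed the test for a difference between the genotypes. In limma without the block, 0 members and 0 of all tested probes (0.00%) were called at an adjusted p below 0.05. At an unadjusted p below 0.05 there were 0 members and 234 of all tested probes. With the replicate block 0 members were called, and 278 probes (2.18%) in all. A difference of at least 2-fold between the means was seen for 0 members and 1.55% of all tested probes. The differences of the members ran from -0.16 for *Psma7* to 0.21 for *Psmd4* with a median of 0.03, and 25 were above and 9 below 0. The median over all tested probes was 0.04, and 60.4% of them were above 0.

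The members also lay closer together than tested probes in general. A difference of more than 0.25 in size was seen for 0 members and 23.9% of all tested probes. The SD of the difference was 0.09 over the members and 0.31 over all tested probes. Bright probes vary less, and 32 of the 34 members had a signal-to-noise of at least 10 on every array. Among the 7800 tested probes as bright as this, 11.3% differed by more than 0.25, and the SD was 0.17. These are descriptions across genes, which are not replicates.

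**Figure D2:**
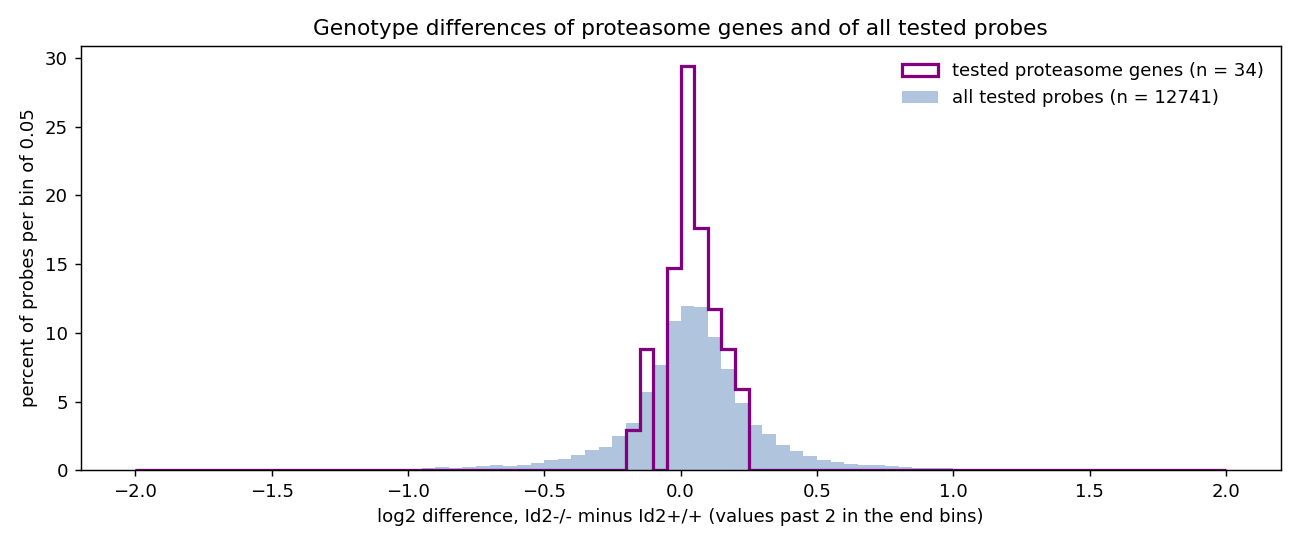
Distribution of the log2 difference (*Id2*-/- minus *Id2*+/+, x axis) as the percent of probes in each bin of 0.05 (y axis), for the 34 tested proteasome genes (line) and all 12741 tested probes (filled). The line stays between -0.25 and 0.25, and the filled distribution has tails on both sides.

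These limits are set by the spread between arrays. Without the block the standard error of a member lay between 0.23 and 0.99. For 24 members the 95% confidence interval stayed within a 2-fold change in either direction, and for the other 10 it reached beyond. With the block all members shared a standard error of 0.27, and their intervals lay between -0.70 and 0.75. Single-gene permutation of 3 against 3 samples cannot give an exact two-sided p under 0.1, so none was used.

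The alpha ring forms the outer walls of the core and its gate. The 5 tested genes had differences with a median of 0.12, which was -0.11 without the *Id2*+/+ array numbered 1. *Psma3* had the highest, with a signal of 6.09, 7.03 and 7.01 in *Id2*-/- samples, against 5.63, 7.04 and 7.00 in *Id2*+/+ samples (0.15 ± 0.47, SE). Array 1 was low in both genotypes, and arrays 2 and 3 were nearly equal between them. *Psma7* had the lowest, with 8.21, 8.81 and 8.69 in *Id2*-/- and 8.00, 9.14 and 9.05 in *Id2*+/+ samples (-0.16 ± 0.37, SE). The *Id2*+/+ samples had both the lowest and the highest of its values. *Psma6* was among the 5 members with the smallest unadjusted p (0.62). It had 7.94, 8.08 and 7.98 in *Id2*-/- and 7.53, 7.92 and 8.15 in *Id2*+/+ samples, with the *Id2*-/- values inside the *Id2*+/+ range.

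The structural beta subunits complete the inner rings without a proteolytic site. Their 4 genes had a median difference of -0.01. *Psmb4* was the highest, with 8.60, 8.62 and 8.43 in *Id2*-/- samples and 8.29, 8.70 and 8.60 in *Id2*+/+ samples (0.02 ± 0.24, SE). *Psmb1* was the lowest, with 8.51, 7.71 and 7.63 in *Id2*-/- and 8.26, 7.74 and 7.90 in *Id2*+/+ samples (-0.02 ± 0.32, SE). Array 1 was the top one for *Psmb1* in both genotypes, and for *Psmb4* the top one in neither, and the genotypes overlapped for each gene. The differences of the other pair, *Psmb2* and *Psmb3*, were -0.01 and 0.00.

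The ATPases of the base unfold the substrate and thread it into the core. All 6 genes were tested and all 6 differences were above 0, with a median of 0.10. By pair, 6 of 6 were above 0 in pair 1, 2 in pair 2 and 1 in pair 3, and without the *Id2*+/+ array numbered 1 the median was -0.02. *Psmc1* was the highest, with 7.32, 7.33 and 7.28 in *Id2*-/- samples, against 6.74, 7.40 and 7.24 in *Id2*+/+ samples (0.18 ± 0.26, SE, unadjusted p = 0.50). The *Id2*+/+ array numbered 1 was the low one and the other 5 arrays lay close together. *Psmc3* was the lowest, with 7.03, 6.23 and 5.93 in *Id2*-/- and 6.61, 6.25 and 6.25 in *Id2*+/+ samples (0.02 ± 0.34, SE). Here array 1 was the highest in both genotypes, and the *Id2*-/- values spanned those of *Id2*+/+.

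The other tested genes of the base were *Psmd2*, which encodes a scaffold for shuttle factors, and *Psmd4*, which encodes a ubiquitin receptor. *Psmd2* had the smallest unadjusted p of all members (0.48), with 6.56, 6.02 and 5.89 in *Id2*-/- and 5.90, 5.86 and 6.11 in *Id2*+/+ samples (0.20 ± 0.27, SE). The genotypes overlapped. *Psmd4* had 6.21, 4.75 and 4.53 in *Id2*-/- and 5.67, 4.53 and 4.66 in *Id2*+/+ samples (0.21 ± 0.52, SE), and array 1 was far above the others in both genotypes.

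The lid holds the enzyme that removes ubiquitin and its scaffold subunits, of which *Psmd6*, *Psmd7*, *Psmd12* and *Psmd13* were tested, with a median difference of 0.01. *Psmd12* was the highest, with 5.74, 6.47 and 6.48 in *Id2*-/- samples and 5.34, 6.62 and 6.47 in *Id2*+/+ samples (0.09 ± 0.41, SE). *Psmd6* was the lowest, with 6.15, 6.43 and 6.37 in *Id2*-/- and 5.62, 6.76 and 6.59 in *Id2*+/+ samples (0.00 ± 0.35, SE). For both genes array 1 was the low one in each genotype, and the values overlapped.

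Activators cap the core in place of the regulatory particle. The 3 tested genes had a median difference of 0.03. *Psme4*, which encodes the activator PA200, had 5.02, 4.57 and 4.47 in *Id2*-/- samples and 4.54, 4.45 and 4.80 in *Id2*+/+ samples (0.09 ± 0.26, SE). *Psme2*, an interferon-inducible activator subunit, had 6.13, 6.11 and 6.09 in *Id2*-/- and 5.71, 6.23 and 6.33 in *Id2*+/+ samples (0.02 ± 0.26, SE). The *Id2*-/- values of *Psme2* lay inside the *Id2*+/+ range, and the genotypes overlapped for *Psme4* too. RefSeq also lists a near copy, *Psme2b*. Probe sequences were not used here, so signal shared with a copy cannot be told apart.

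*Psmf1*, which encodes an inhibitor of the core, was above background on the arrays numbered 2 and 3 of both genotypes and on neither array numbered 1. Its signal-to-noise was 2.20, 5.58 and 9.59 in *Id2*-/- samples, against 0.64, 9.72 and 3.45 in *Id2*+/+ samples. Without all 3 arrays of a genotype above background, it was not tested.

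Assembly chaperones build the particle and leave it. Those of the core, *Psmg1* to *Psmg3*, had a median difference of -0.02. *Psmg2* was the highest, with 5.30, 4.27 and 3.98 in *Id2*-/- and 4.91, 4.27 and 4.28 in *Id2*+/+ samples (0.03 ± 0.40, SE). *Psmg3* was the lowest, with 5.24, 3.81 and 3.67 in *Id2*-/- and 4.95, 3.98 and 4.13 in *Id2*+/+ samples (-0.12 ± 0.48, SE). Array 1 was the highest for both in each genotype, and the values overlapped. Of the chaperones of the base, *Psmd10* had a difference of 0.07. *Psmd5* had 5.10, 5.07 and 4.89 in *Id2*-/- and 4.77, 5.16 and 5.51 in *Id2*+/+ samples (-0.13 ± 0.27, SE, unadjusted p = 0.66), and its *Id2*-/- values lay inside the *Id2*+/+ range.

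A single member did not overlap between the genotypes. *Psmc3ip*, whose product acts in meiotic recombination, had 4.90, 4.93 and 4.91 in *Id2*-/- samples, against 4.50, 4.88 and 4.88 in *Id2*+/+ samples (0.16 ± 0.23, SE, unadjusted p = 0.51). The *Id2*-/- values were just above arrays 2 and 3 of *Id2*+/+. Among all tested probes 2.73% had all *Id2*-/- values above all *Id2*+/+ values, and 1.29% had them below, as 0 members did. The count of 1 member in 34 is near that background.

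In the comparison by pair, members followed the shift of all tested probes. In the pair numbered 1, all 34 members were higher in *Id2*-/-, with a median of 0.41, as were 85.6% of all tested probes, with a median of 0.35. In the pair numbered 2, 11 members were higher and 23 lower, with a median of -0.03, compared with -0.04 for all tested probes. In the pair numbered 3, 5 were higher and 29 lower, with a median of -0.24, compared with -0.19. The direction thus differed between pairs, and after the median of all tested probes was taken off each pair the medians of the members were 0.06, 0.00 and -0.05. In the pair numbered 1, the mean signal over the members was 6.44 on the *Id2*-/- array, the highest of its genotype, and 6.04 on the *Id2*+/+ array, the lowest of its genotype. The median over all tested probes was 3.86 on this *Id2*-/- array and 3.51 on the *Id2*+/+ array, again the highest and the lowest of their genotypes.

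The sign of the pair median was not shared by 11 members in pair 2 and 5 in pair 3. In pair 3, *Psmb5* had a difference of 0.17 and *Psmb10* one of -0.64, the highest and the lowest of all members there. *Psmd5* was next to the lowest, with -0.62. In pair 1, *Psmd2* was the highest with 0.66 and *Psmb5* the lowest with 0.08. The order of *Psmb5* and *Psmb10* turned between pairs, since *Psmb10* had the higher difference in pair 1 (0.47). In pair 2 they had -0.07 for *Psmb5* and -0.14 for *Psmb10*. *Psmb7*, the constitutive counterpart of *Psmb10*, had -0.25 in pair 3.

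**Figure D3:**
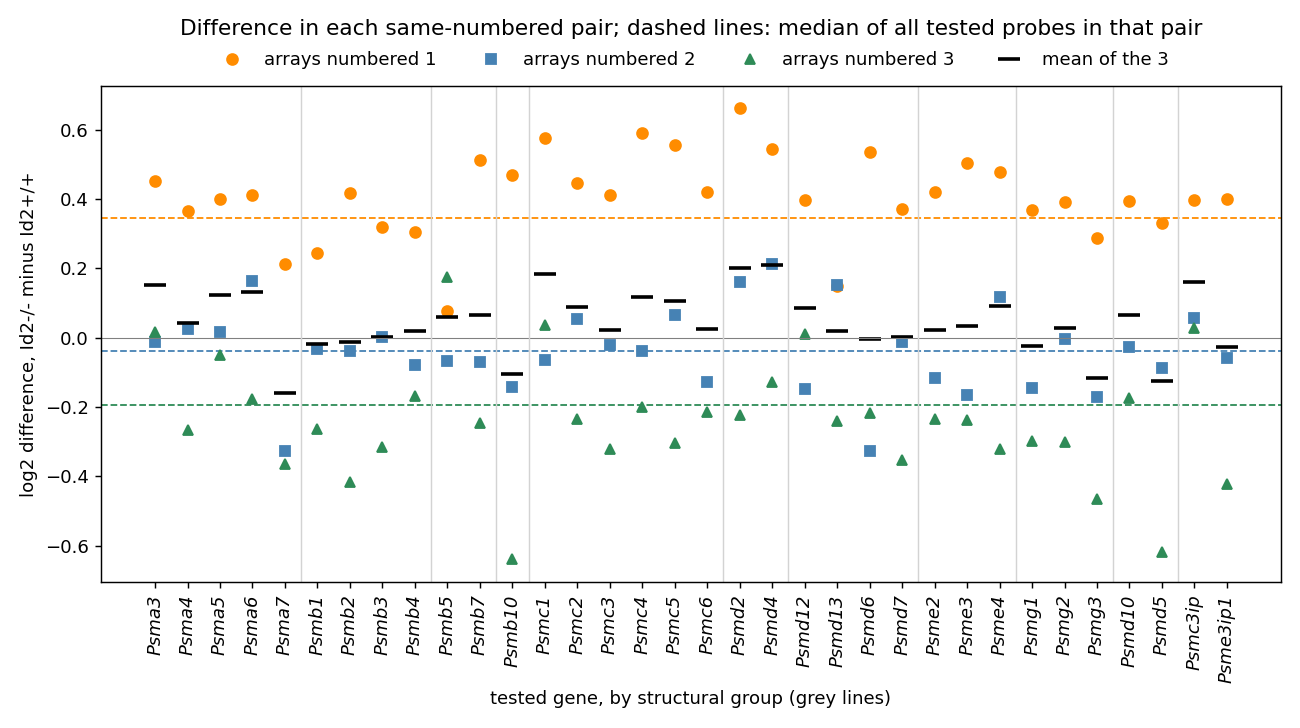
Log2 difference (*Id2*-/- minus *Id2*+/+, y axis) of each tested gene in the pairs of arrays numbered 1, 2 and 3 (symbols) and as the mean of the 3 (black dash). Genes are ordered by structural group along the x axis, and dashed lines mark the median of all tested probes in each pair. All circles of pair 1 lie above 0, and 29 of the triangles of pair 3 lie below 0.

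Differences between array numbers were larger than those between genotypes for many members. Array 1 was set against the mean of arrays 2 and 3 of the same genotype. *Psmb5* was higher on array 1 by 2.76 in *Id2*-/- and 2.73 in *Id2*+/+ samples, *Psmd13* by 1.76 and 1.57, and *Psmd4* by 1.57 and 1.07. These 3 were the only members at least 2-fold higher in both genotypes, a pattern shown by 9.00% of all tested probes. The reverse, at least 2-fold lower in both, was seen for 0 members and 3.34% of all tested probes. *Psma3* came nearest, with -0.94 in *Id2*-/- and -1.38 in *Id2*+/+ samples, and *Psmd12* followed with -0.74 and -1.21.

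Subunits of the same particle differed in opposite directions between arrays. In both genotypes, 12 members were higher and 11 lower on array 1, and the others differed in sign. The ATPase gene *Psmc5* was higher by 1.50 in *Id2*-/- and 0.83 in *Id2*+/+ samples, and the ATPase gene *Psmc6* was -0.37 and -0.96. Over the members the SD of this shift was 0.82 in *Id2*-/- and 0.87 in *Id2*+/+ samples, and over all tested probes 0.86 and 0.97. What the arrays numbered 1 share was not stated, and its part in these values was not tested. With both left out, 0 members and 0 of all tested probes were called in limma. At an unadjusted p below 0.05 there were 0 members and 1596 of all tested probes. The median difference of the members was then -0.14, compared with -0.11 for all tested probes.

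**Figure D4:**
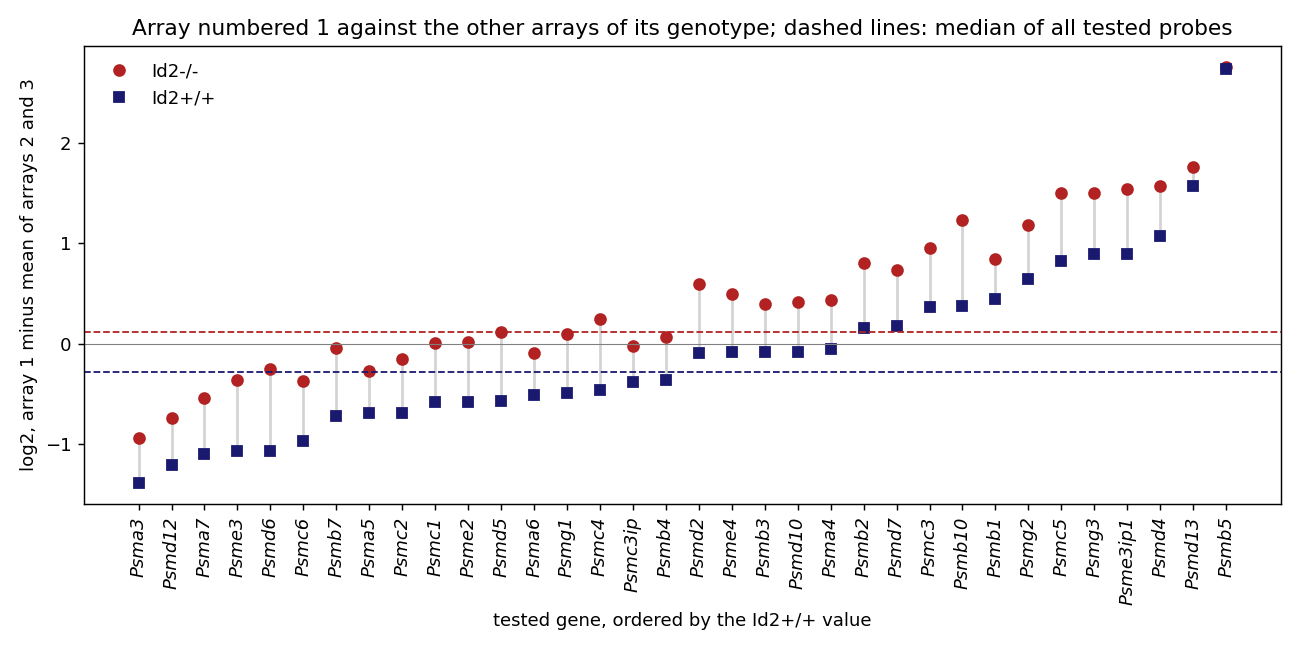
Signal on array 1 minus the mean of arrays 2 and 3 of the same genotype (log2, y axis) for each tested gene, in *Id2*-/- (circles) and *Id2*+/+ (squares), ordered by the *Id2*+/+ value. Dashed lines mark the medians of all tested probes. *Psma3* has the lowest and *Psmb5* the highest value in both genotypes, and each circle lies above its square.

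Outside the family, 29 partner genes were listed, of which 18 had a named probe and 17 were tested. Without the replicate block 0 were called, compared with 0.00% of all tested probes. With the block 0 were called too, compared with 2.18%. Their differences ran from -0.06 for *Uchl5*, a deubiquitinase of the regulatory particle, to 0.44 for *Rad23b*, a shuttle factor. The median was 0.10, and 16 were above and 1 below 0. Of all tested probes, 60.4% were above 0. The partner genes above 0 were 17 in pair 1, 6 in pair 2 and 2 in pair 3. By pair, their medians were 0.55, -0.04 and -0.13, compared with 0.35, -0.04 and -0.19 for all tested probes. *Pomp*, the maturation factor of the core, had 7.44, 7.43 and 7.44 in *Id2*-/- samples and 6.97, 7.47 and 7.58 in *Id2*+/+ samples (0.10 ± 0.25, SE). *Nfe2l1*, which encodes the factor that induces proteasome genes when degradation is blocked, had 2.85, -0.03 and 0.05 in *Id2*-/- and 2.11, 0.02 and -0.17 in *Id2*+/+ samples. The *Id2*-/- array numbered 2 was below background for it, so its difference of 0.31 ± 0.91 (SE) rests partly on such a signal. As for *Psmb5*, array 1 of *Nfe2l1* was far above the others in both genotypes. *Vcp*, the segregase that extracts ubiquitylated proteins, had a difference of 0.03, and the proteasome-bound deubiquitinase gene *Usp14* one of 0.00.

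The cell makeup of the tissue could differ between samples, and markers are given for that. All 8 epithelial markers had a difference below 0 (median -0.30). All 5 erythroid markers (median 0.72) and 3 of 3 tested endothelial markers (median 0.41) had one above 0. The other lists had both signs. Of the tested markers, 3 of 6 for mesenchyme were above 0 (median 0.01), 2 of 3 for smooth muscle (median 0.16) and 1 of 2 for enteric neural crest (median 0.03). Without the block 0 genes of these lists and 0.00% of all tested probes were called, and with it 0 and 2.18%. The epithelial medians by pair were 0.42, -0.47 and -0.82, the erythroid ones 0.78, 0.53 and 0.57, and the endothelial ones 1.43, 0.39 and -0.21. The erythroid genes *Hba-a1* and *Alas2* were below 0 in pairs 2 and 3. The part of cell makeup in the values of the proteasome genes was not tested.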

How the data were processed

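Total RNA of the distal midgut was amplified, labeled and hybridized to mouse genome survey arrays of Applied Biosystems, version 2.0, by the authors. The deposited files give an intensity per probe as the scanner gave it, a score of signal to noise, a flag code, and the ratio of the intensity to a constant of the array, made by the authors (between 708.0 and 1010.4). Background subtraction is not described. Per the methods, spots were dropped for flags below 5000 and for a signal-to-noise below 3. In these files high flags were read as bad instead, from 5000 upward, leaving 32189 probes unflagged on all arrays. Dropping flags below 5000 would have removed bright probes such as that of *Psmb7*. Its largest flag on any array was 0, and its signal-to-noise was at least 101.7 on every array. All 74763 spots with flag 1 had a signal-to-noise under 3, which does not tell how flags from 5000 upward should be read.

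For tests, limma 3.58.1 (lmFit, eBayes, R 4.3.3) was applied to log2 of the ratio over 12741 probes, with Benjamini-Hochberg adjustment at 0.05. The fits were also run on simulated data. Those had a capped SD per probe and no shift between array numbers, so they do not test the fits at the spread seen here. Probe names come from the platform annotation (14411 probes with 1 symbol, 247 with several, 18354 with none), with no member renamed by the RefSeq table. The number of arrays limits the precision. Arrays with the same number in their titles were treated as pairs. After the mean of each genotype was taken off, they correlated at 0.838, 0.644 and 0.579. Because array 1 stood apart in both genotypes, arrays 2 and 3 would correlate this way under either numbering. These values therefore cannot show whether arrays 2 and 3 are rightly paired. The labels do not say what a pair shares. With the block the prior degrees of freedom were infinite, so every probe shares 1 variance.

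The members and lists were chosen with earlier results of these data known. Named with values in every array were the catalytic subunits, the highest and lowest member of each group with at least 3 tested genes, and the 5 members with the smallest p; *Psmd4*, *Psmd13*, *Psmc5*, *Psmc6*, *Psmb11* and *Psmf1* were added after their values were seen. Alternatives were quantile normalization, other signal-to-noise filters, an offset of 0.5, a trended robust prior, the replicate block, the deposited series table, single pairs, the methods' t-test and leaving out each array. Figures were drawn with matplotlib 3.10.9.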

Additional observations from a re-analysis of the deposited data

How the results depend on the processing

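The count of 0 proteasome genes called held under every alternative run. Apart from the replicate block and the unadjusted t-test, each alternative with a test also called 0 of all tested probes. In those settings the count could not set the members apart. With the replicate block, which treats same-numbered arrays as paired, 278 of all tested probes and 1 interferon gene were called, and 0 partner genes. Calls with the block depend only on the size of a difference, because every probe has the same standard error there. The block combined with quantile normalization, chosen after seeing the data, called 0 probes. The methods' t-test, unadjusted at 0.05, gave 242 probes and 0 members, and 0 probes after Benjamini-Hochberg. The median difference of the members was 0.03 and became 0.41 in the pair numbered 1 alone, and was -0.07 to 0.15 with 1 array left out, with the lowest value without the *Id2*-/- array numbered 1. It was -0.01 when arrays were centred on the tested probes, an alternative also chosen after seeing the data. With 1 array left out the group medians ranged from -0.11 to 0.25 for the alpha ring, -0.20 to 0.12 for the structural beta subunits, -0.02 to 0.21 for the ATPases, -0.13 to 0.09 for the lid, -0.17 to 0.17 for the activators and -0.37 to 0.18 for the core chaperones, so each turned its sign. Of 266 alternatives for 19 named genes, 221 kept the sign of the difference and 45, in 17 genes, turned it, and none of these differences passed the threshold. The signal-to-noise filters, the block, the trended prior and the deposited series table leave the difference of a gene as it is. They are counted among the 221, although their sign was fixed in advance. With quantile normalization the difference was -0.0056 for *Psmb4*, -0.012 for *Psmb5* and -0.014 for *Psmg2*, and after centring it was -0.025 for *Psmb4*, -0.021 for *Psmc3*, -0.0200 for *Psme2* and -0.0137 for *Psmg2*. With 1 array left out it ranged from -0.31 to 0.46 for *Psma3*, from -0.037 to 0.28 for *Psma6*, from -0.52 to 0.044 for *Psma7*, from -0.30 to 0.14 for *Psmb1*, from -0.52 to 0.17 for *Psmb10*, from -0.10 to 0.10 for *Psmb4*, from -0.86 to 0.97 for *Psmb5*, from -0.17 to 0.22 for *Psmb7*, from -0.0106 to 0.32 for *Psmc1*, from -0.29 to 0.26 for *Psmc3*, from -0.32 to 0.33 for *Psmd12*, from -0.32 to 0.058 for *Psmd5*, from -0.36 to 0.22 for *Psmd6*, from -0.17 to 0.14 for *Psme2*, from -0.074 to 0.20 for *Psme4*, from -0.37 to 0.30 for *Psmg2* and from -0.62 to 0.18 for *Psmg3*. The cause was not tested. For 10 genes the interval without the block reaches past a 2-fold change, and *Psmb8*, *Psmb11* and *Psmf1* are limited by signal near background.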
